A study of Homo sapiens with 35 samples.

Results

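The 8 genes described here encode the inducible catalytic subunits of the immunoproteasome (PSMB8, PSMB9 and PSMB10), the activator subunits that cap the 20S proteasome in place of the 19S particle (PSME1, PSME2, PSME3 and PSME4), and the 20S inhibitor PI31 (PSMF1). They were taken by symbol from the protein-coding entries of the count table, 8 of 19665, and were followed through all 35 libraries of the series. All 8 had counts in every library and were among the 17999 entries tested. The RNA was that of RPMI-8226, a long-established cell line of multiple myeloma, exposed to the proteasome inhibitor carfilzomib at 750 nM for 1 h, washed with PBS and returned to drug-free medium. Cells were collected on day 0 and on days 1, 2, 4, 6, 8 and 10 after the pulse, with 5 libraries per day. The sample labels list the pulse for day 0 as well, but the study's methods place that collection before the drug was added, and day 0 was used as the untreated reference. All days shared the same line and RPMI-1640 medium with fetal bovine serum, and medium was replaced every 48 h. Day 1 was collected between medium changes and the later days just before a change, so the time since fresh medium differed. Cell density was adjusted on days 0, 6 and 8. Neither can be told apart from the pulse. The subcultures were split from a single expanded culture, so the spread between them does not cover separate experiments. There was no culture without carfilzomib at the later days, so time in culture and the pulse cannot be told apart.

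The 20S proteasome is a barrel whose inner rings carry a trio of proteolytic subunits, PSMB5 (β5, chymotrypsin-like), PSMB6 (β1, caspase-like) and PSMB7 (β2, trypsin-like). In lymphoid cells and in cells exposed to interferon-γ, PSMB8 (β5i), PSMB9 (β1i) and PSMB10 (β2i) are built into new particles in their place, and the resulting immunoproteasome is known for producing peptides presented on MHC class I. PSME1 and PSME2 form the cytosolic PA28αβ ring, which opens the barrel and is also interferon-inducible, whereas PSME3 forms the mostly nuclear PA28γ ring, and PSME4 encodes PA200, a large single-chain nuclear activator. PSMF1 encodes PI31, which binds the 20S particle and inhibits it in vitro. Carfilzomib reacts with the chymotrypsin-like sites of both the constitutive and the immune particle. Cells with blocked proteasomes raise transcription of ordinary subunits through the factor NRF1 (NFE2L1), which acts at antioxidant response elements (ARE).

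PSMB8 and PSMB9 lie close together in the MHC region of chromosome 6 (chr6:32840717-32844679 and chr6:32844136-32859851, GRCh38), on opposite strands, with gene models that overlap but main transcripts that share no exon. The start site of PSMB9 is 488 bases from that of the peptide transporter gene TAP1, which is read in the other direction. TAP1 (chr6:32845209-32853816) lies between PSMB8 and the main start site of PSMB9. PSME1 (chr14:24136163-24138967) and PSME2 (chr14:24143362-24147570) also lie close together on opposite strands, with 4395 bases between their 3′ ends. PSMB10 is at chr16:67934506-67936864, PSME3 at chr17:42824385-42843760, PSME4 at chr2:53864069-53970993 and PSMF1 at chr20:1113240-1189415. Of the main PSMB10 transcript, 56.1% also lies in exons of another protein-coding gene model on the same strand, so that reads could be divided between the 2 and the counts of PSMB10 are uncertain. Exon overlap with genes on the opposite strand was 2.15% of the main transcript for PSME4 and 0.415% for PSME1.

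Promoter sequences of RefSeq (GRCh38.p14) were found for all 8 genes and were searched on both strands for 3 motifs, which were chosen when the expression values were already known. The motifs were the interferon-stimulated response element (ISRE), spelled as 2 copies of GAAA separated by any 2 bases, the interferon-γ activated site (GAS), spelled TTCNNNGAA, and the ARE, spelled TGACNNNGC. An ISRE match was in 4 of 8 main promoters (PSMB8, PSMB10, PSME1 and PSME2) and in 3.57% of 35116 promoters of the same length, 300 bases. A GAS match was in 2 of 8 (PSMB8 and PSME3) against 7.66% of all promoters, and an ARE match was in 4 of 8 (PSMB9, PSME1, PSME2 and PSME4) against 13.3%. The 4 ISRE matches had the same 10 letters, read on either strand, and began between positions -28 and 6, where 1 is the first transcribed base. The 300 bases searched for PSMB9 held no ISRE match. The 2 overlapping ISRE matches of TAP1 lie between the start sites of TAP1 and PSMB9, upstream of both and outside the bases searched for PSMB9. A match is a description of the letters and not of binding. The promoters below run from position -100 to position 20 on the strand of each gene, except for TAP1, whose stretch runs from position -160 to -61. They are shown because they place the matches beside the start sites of the genes compared below, and capitals mark matches to any of the 3 motifs.
PSMB8 (chr6:32844028-32844147, minus strand, GAS then ISRE in capitals): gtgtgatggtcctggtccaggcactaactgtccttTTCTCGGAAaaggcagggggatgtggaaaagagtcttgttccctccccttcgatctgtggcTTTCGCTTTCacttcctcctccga
PSMB10 (chr16:67936831-67936950, minus strand, ISRE in capitals): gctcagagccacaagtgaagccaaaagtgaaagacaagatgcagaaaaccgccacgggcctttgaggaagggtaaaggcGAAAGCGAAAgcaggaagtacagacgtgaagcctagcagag
PSME1 (chr14:24136094-24136213, plus strand, ARE then ISRE in capitals): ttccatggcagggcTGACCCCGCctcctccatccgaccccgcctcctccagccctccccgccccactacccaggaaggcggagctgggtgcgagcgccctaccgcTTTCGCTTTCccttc
PSME2 (chr14:24146591-24146710, minus strand, ISRE in capitals): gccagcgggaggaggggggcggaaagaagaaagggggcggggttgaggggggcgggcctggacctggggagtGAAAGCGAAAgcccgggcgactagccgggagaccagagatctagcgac
PSME4 (chr2:53970974-53971093, minus strand, ARE in capitals): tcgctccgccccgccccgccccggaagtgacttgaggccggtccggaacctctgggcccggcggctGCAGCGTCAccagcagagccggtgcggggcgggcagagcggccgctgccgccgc
PSMB9 (chr6:32854092-32854211, plus strand, no match in this stretch): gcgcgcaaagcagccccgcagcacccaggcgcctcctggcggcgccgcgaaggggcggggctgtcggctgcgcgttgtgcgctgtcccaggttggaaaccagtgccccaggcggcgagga
TAP1 (chr6:32853765-32853864, minus strand, 2 overlapping ISRE matches in capitals): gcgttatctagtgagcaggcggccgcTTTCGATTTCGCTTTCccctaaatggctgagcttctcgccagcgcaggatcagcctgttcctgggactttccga

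Libraries held 6519392 to 10962890 estimated counts, and member counts per library ran from 98 (PSMB9) to 2447 (PSME3). Values below are in CPM, counts scaled to a common total with each library's TMM-normalized protein-coding sum. All 10 plasma cell markers examined had counts in every library, from at least 11.2 CPM (SLAMF7) and 12 CPM (TNFRSF17) to at least 1280 CPM (JCHAIN), and 6 of them were lower on day 1 (27.3% of all entries tested were). Their summed level was 6620 to 7530 CPM on day 0, 2930 to 3270 CPM on day 1 and 7490 to 8830 CPM on day 10. The largest part of this sum was JCHAIN, at 1280 to 6360 CPM over all libraries. Among 12 markers of other cell types, COL1A2 was at 0 in all libraries, and CD3D, LYZ and HBB stayed below 1 CPM. The summed level of these 12, most of it EPCAM and NCAM1, was 79.4 to 104 CPM on day 0 and 122 to 137 CPM on day 1. The part of these shifts in the results below was not tested. In bulk RNA, fewer cells expressing a gene and less of its RNA per cell cannot be told apart.

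On day 1, 6 of the 8 genes were higher than on day 0 and 1 was lower at Q ≤ 0.05 (edgeR quasi-likelihood test, Benjamini-Hochberg adjustment over all tested entries), when 25.4% of all entries were higher and 27.3% lower. Among the entries kept by filterByExpr, which removes those of low count, the same fit called 36.1% higher and 34.8% lower. In a refit after that filter, 5 of the 8 genes were higher and 1 lower. PSME4 alone among the 8 also passed a fold change of 2, as 7.27% of all entries did upward. Day 2 had 4 genes higher and 0 lower (background 23.2% and 24.4%, with 5 of the 8 at an unadjusted p under 0.05), and day 4 had 3 higher and 1 lower (19% and 20.1%). On day 2 all 8 were called higher with library size without factors, or with all biotypes of a symbol summed. On day 6 the test called 2 above and 2 below day 0 (17.5% and 17%), on day 8 it called 1 each way (18.2% and 18.6%), and likewise 1 each way on day 10 (16.1% and 15.8%), PSMB8 above and PSME3 below both times. The median log2 fold change of the 8 was 0.36 on day 1, 0.24 on day 2 and -0.02 on day 10, beside -0.06, -0.04 and -0.02 over all entries tested. All these comparisons share the day 0 libraries.

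**Figure D1:**
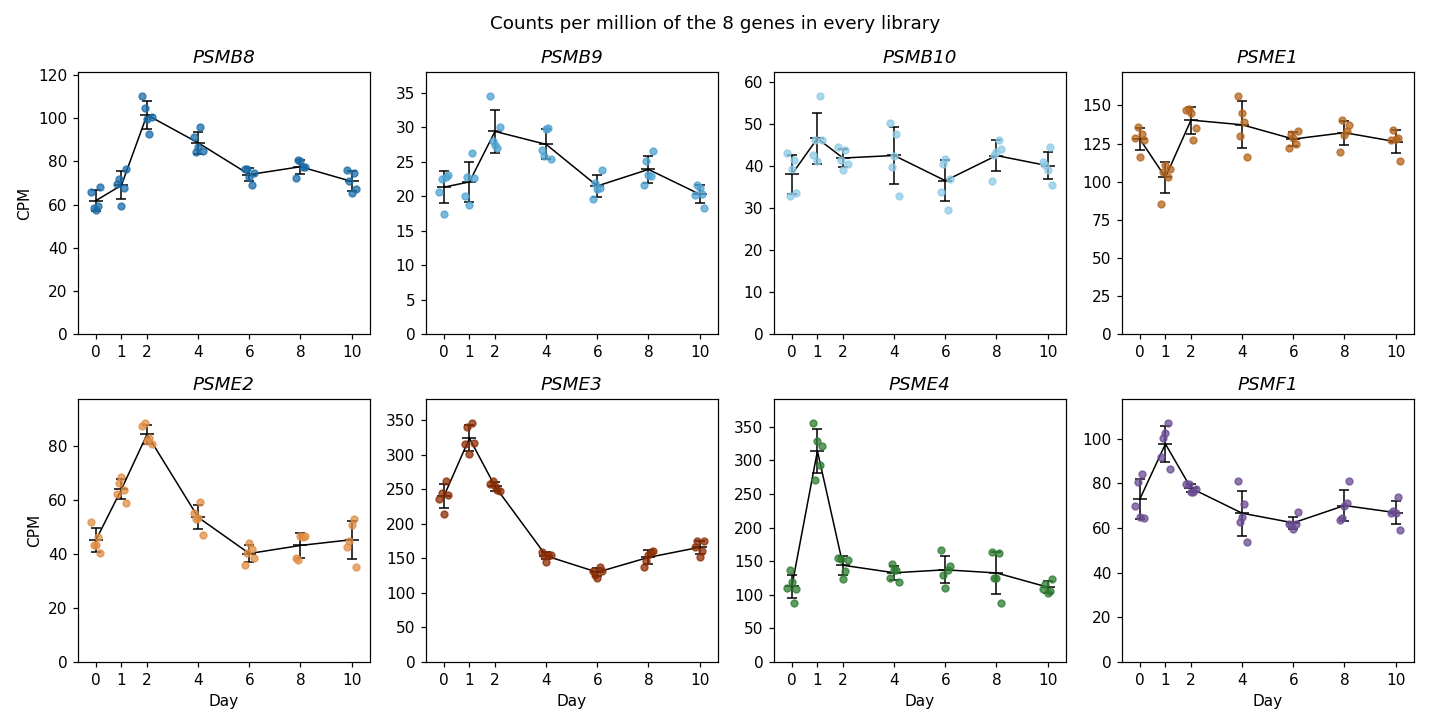
Level of each of the 8 genes in every library, in CPM on a linear axis from 0, against day; each point is 1 library, and black bars give the mean and SD of 5 libraries. PSMB8, PSMB9 and PSME2 had their highest means on day 2, PSME3, PSME4, PSMF1 and PSMB10 on day 1, and PSME1 had its lowest mean on day 1.

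PSMB8, the β5i subunit, was called higher on all 6 days after the pulse, with its highest level on day 2. Its 5 day 0 libraries read 65.8, 58.6, 57.4, 59.5 and 68.2 CPM, and those of day 2 read 110.4, 104.6, 99.5, 92.5 and 100.7 CPM. Every day 2 library was above every day 0 library, and the log2 fold change was 0.71 ± 0.06 (SE; adjusted p = 3.77e-13, edgeR), or 1.64-fold. The groups also did not overlap on day 4 (84.5 to 96.0 CPM; log2 fold change 0.52, adjusted p = 5.06e-09), day 6 (69.3 to 76.7 CPM; 0.26, 0.00112) or day 8 (72.3 to 80.7 CPM; 0.33, 4.46e-05). On day 10 the libraries read 76.0, 70.7, 65.3, 74.6 and 67.2 CPM, which overlapped day 0. The day 10 call (log2 fold change 0.19 ± 0.06, adjusted p = 0.0167) was lost without Day 0 replicate 3 (0.17, adjusted p = 0.0565). Day 1 overlapped day 0 too, at 69.4, 72.1, 59.3, 67.6 and 76.6 CPM. Its call of 0.16 ± 0.06 (adjusted p = 0.0369) was lost under filterByExpr (0.12, adjusted p = 0.068), RLE factors (0.13, 0.0826), DESeq2 (0.13, 0.0794) and in 6 of 10 fits that left out a library (0.10 to 0.14). Those fits left out Day 0 replicate 2, 3 or 4, or Day 1 replicate 1, 2 or 5.

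PSMB9, the β1i subunit, passed the test on days 2 and 4. On day 0 it read 20.7, 22.5, 17.5, 22.9 and 23.1 CPM, and on day 1 it read 20.0, 22.8, 18.8, 26.2 and 22.7 CPM. These days overlapped throughout, with a log2 fold change of 0.05 ± 0.10 (adjusted p = 0.698). On day 2 the libraries read 34.6, 27.99, 27.5, 27.0 and 30.1 CPM, all above day 0, with a log2 fold change of 0.46 ± 0.09 (adjusted p = 4.22e-05). Day 4, at 25.4 to 29.9 CPM, was also wholly above day 0 (0.37 ± 0.09, adjusted p = 0.0012). From day 6 on the libraries overlapped day 0, and no later day passed the test. With all biotypes summed, an alternative added after the data had been seen, PSMB9 was also called higher on day 1 (0.27, adjusted p = 0.0307) and day 8 (0.31, 0.0142). The step from day 1 to day 2 was 0.41 (adjusted p = 0.000244) for PSMB9 and 0.56 (adjusted p = 3.17e-10) for PSMB8.

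PSMB10, the β2i subunit, passed the test on day 1 and on no later day. Day 0 libraries read 43.0, 32.9, 39.3, 41.5 and 33.7 CPM and day 1 libraries read 42.8, 46.3, 41.2, 56.8 and 46.2 CPM, which overlapped. The day 1 log2 fold change of 0.29 ± 0.10 (adjusted p = 0.0134) was no longer called without Day 0 replicate 2 (0.23, adjusted p = 0.0666), Day 0 replicate 5 (0.24, 0.0552) or Day 1 replicate 4 (0.21, 0.0818). From day 2 to day 10 its log2 fold changes lay between -0.06 and 0.16 and none passed the test. The day 4 value of 0.16 rose to 0.26 and passed without Day 4 replicate 5 (adjusted p = 0.0311), and passed with library size without factors (0.27, 0.0205). PSMB10 also had the largest share of non-coding transcripts of the 3, with a median of 83.1% of its counts in the protein-coding entry on day 0 and 73.5% on day 2. When all biotypes were summed, its day 2 difference was 0.36 (adjusted p = 2.56e-05).

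**Figure D2:**
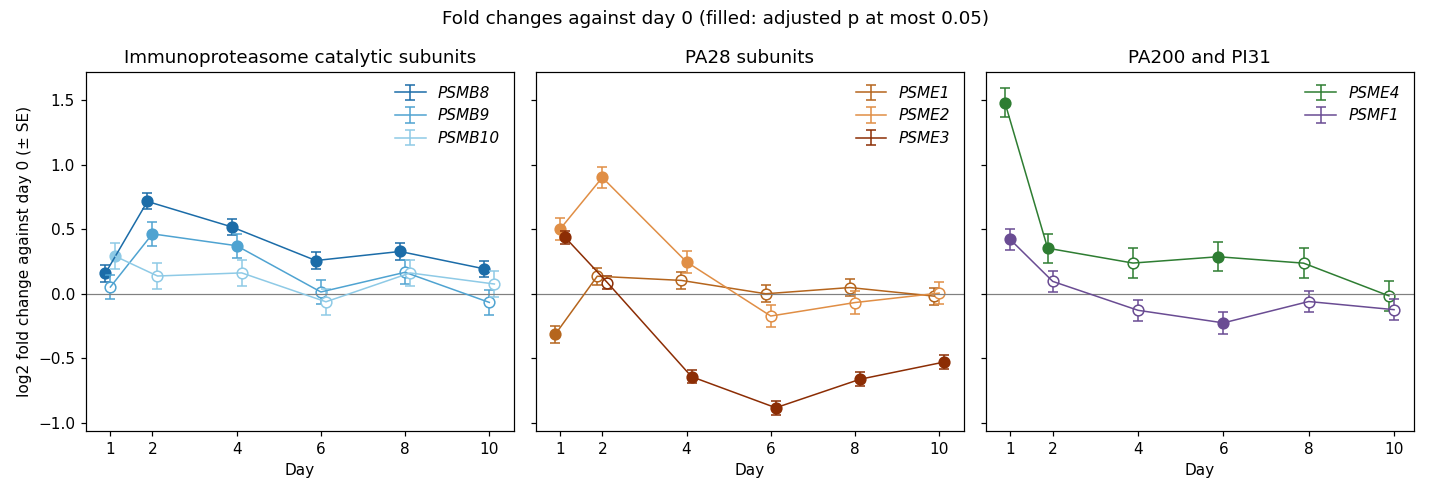
Log2 fold change of each gene against day 0, by day, with bars of 1 SE; filled points passed an adjusted p of 0.05 (edgeR). PSME4 stood at 1.48 on day 1, PSME2 at 0.90 and PSMB8 at 0.71 on day 2, and PSME3 was below day 0 from day 4 to day 10.

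The subunits that these 3 replace rose far more on day 1, as part of the rise of all 11 listed structural 20S subunits and all 19 listed 19S subunits that day. PSMB5 went from 53.4 ± 5.08 to 127.7 ± 5.57 CPM (SD, n = 5), PSMB6 from 48.3 ± 4.60 to 251.4 ± 15.6 CPM, and PSMB7 from 144.2 ± 7.93 to 543.8 ± 19.6 CPM. The ratio of immune to constitutive counts was therefore compared within each library, where the library total drops out. A ratio of counts between genes depends on their lengths, so only its change between days was read. There were 42 such tests, 7 ratios on 6 days, each an exact two-sided permutation test of 5 libraries against 5 (no p under 0.00794 can be reached), with Benjamini-Hochberg adjustment over the 42.

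On day 1 all 3 immune-to-constitutive ratios were lower in every library than in any day 0 library. The log2 ratio of PSMB8 to PSMB5 fell from 0.22 ± 0.14 to -0.89 ± 0.14 (SD), a difference of -1.11, that of PSMB9 to PSMB6 differed by -2.33, and that of PSMB10 to PSMB7 by -1.62 (each q = 0.0256 by exact permutation test). On a linear scale the ratios were 0.464, 0.198 and 0.324 times their day 0 values. A day later the order had turned for PSMB8: its ratio to PSMB5 was above all day 0 libraries on day 2 (difference 0.54, q = 0.0256, exact permutation test) and day 4 (0.35, q = 0.0256, exact permutation test). The other pairs did not pass on day 2, with differences of -0.25 for PSMB9 to PSMB6 (q = 0.111, exact permutation test) and -0.01 for PSMB10 to PSMB7 (q = 0.96, exact permutation test). Leaving out Day 2 replicate 1 brought the PSMB9 to PSMB6 difference to -0.31 and past the threshold. From day 6 to day 10 none of the 3 ratios passed. PSMB8 rose relative to PSMB9 on day 2 by 0.25 (q = 0.0476, exact permutation test) with overlapping groups, a call that was lost in 8 of 10 fits without a library (0.21 to 0.28) and with all biotypes summed (0.17).

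**Figure D3:**
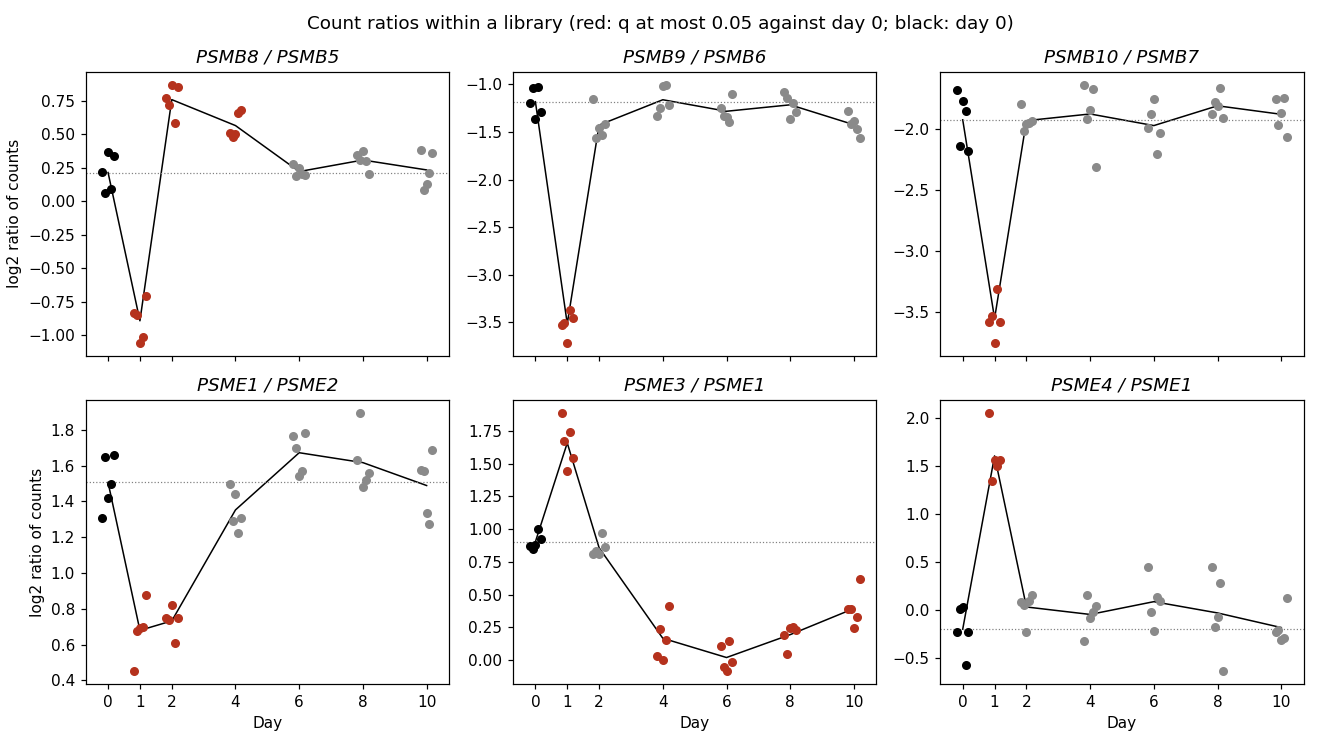
Log2 ratio of counts of 6 gene pairs in each library, by day; each point is 1 library, the black line joins the means of 5 libraries, the dotted line is the day 0 mean, and each panel has its own axis range. The immune-to-constitutive ratios of the upper row had their lowest means on day 1, and PSMB8 to PSMB5 stood above day 0 on days 2 and 4.

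The cytosolic PA28 subunits moved apart on day 1. PSME1 (PA28α) read 128.5, 135.8, 116.4, 131.3 and 127.6 CPM on day 0 and 85.3, 106.4, 110.7, 103.4 and 108.5 CPM on day 1. Every day 1 library was below every day 0 library, and PSME1 was the member that was lower that day, by a log2 fold change of -0.32 ± 0.07 (adjusted p = 1e-04). Day 1 replicate 1 stood below the other 4, yet the call held in all fits that left out a library and in every other alternative, between -0.35 and -0.18. By day 2 PSME1 read 146.8, 147.6, 144.9, 127.1 and 135.4 CPM, overlapping day 0 (0.14 ± 0.07, adjusted p = 0.0898), and it did not differ from day 0 at the threshold on days 4 to 10 (-0.02 to 0.10). Day 2 became a call in the fit of the 2 days alone (0.17, adjusted p = 0.0138) and without Day 2 replicate 4 (0.17, 0.04). Day 4 became a call without Day 4 replicate 5 (0.18, 0.0272), with library size without factors (0.21, 0.0029) and with all biotypes summed (0.18, 0.0423).

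PSME2 (PA28β) rose on both early days. Its libraries read 52.0, 43.3, 43.4, 46.5 and 40.4 CPM on day 0, 62.3, 66.6, 68.6, 63.8 and 59.0 CPM on day 1, and 87.6, 88.6, 82.0, 83.3 and 80.7 CPM on day 2. All day 1 libraries were above all of day 0, and all of day 2 above all of day 1. The log2 fold changes of the protein-coding entry were 0.50 ± 0.08 on day 1 (adjusted p = 2.1e-06) and 0.90 ± 0.08 on day 2 (adjusted p = 1.55e-12), or 1.41-fold and 1.87-fold. Over the alternatives they ranged from 0.24 to 0.62 on day 1 and from 0.59 to 1.03 on day 2, with both calls kept. The median protein-coding share of PSME2 counts rose as well, from 58.5% on day 0 to 79.9% on day 1 and 81% on day 2. The excess shrank to 0.25 ± 0.08 on day 4 (adjusted p = 0.0178), where the groups overlapped. That call was lost without Day 4 replicate 4 (0.21, adjusted p = 0.0658) and with all biotypes summed (0.01, adjusted p = 1). With that sum PSME2 was lower on day 6 (-0.22, adjusted p = 0.018), where the protein-coding entry did not pass (-0.17, 0.124). On day 10 PSME2 read 42.7, 45.0, 50.7, 53.0 and 35.3 CPM, at a log2 fold change of 0.00. The ratio of PSME1 to PSME2, subunits of the same ring, was below day 0 in all libraries on day 1 (difference -0.83) and day 2 (-0.77), each with q = 0.0256 by exact permutation test, and overlapped day 0 from day 4 on.

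PSME3 (PA28γ) rose on day 1 and was below day 0 from day 4 to day 10. It read 235.1, 244.1, 214.5, 262.3 and 241.8 CPM on day 0 and 315.6, 340.1, 301.2, 345.4 and 316.5 CPM on day 1, a rise without overlap of 0.44 ± 0.05 (adjusted p = 1.07e-09). On day 2 it read 246.8 to 262.4 CPM and overlapped day 0 (0.09 ± 0.05, adjusted p = 0.173). On day 4 the libraries had dropped to 159.7, 153.4, 145.2, 154.3 and 154.4 CPM, and on day 6 to 131.0, 126.4, 121.6, 137.9 and 131.8 CPM. All were below the lowest day 0 library, with log2 fold changes of -0.64 ± 0.05 (adjusted p = 1.55e-13) and -0.88 ± 0.05 (adjusted p = 2.64e-17). PSME3 then recovered in part, to 136.7 to 160.9 CPM on day 8 (-0.66, adjusted p = 8.28e-14). By day 10 it read 166.4, 175.4, 152.0, 161.1 and 174.5 CPM, still wholly below day 0 (-0.53 ± 0.05, adjusted p = 5.79e-11). These falls stayed past the threshold in every alternative, and the day 10 value ranged from -0.57 to -0.46. The ratio of PSME3 to PSME1 gave the same order within libraries: it was above day 0 on day 1 by 0.75 and below it on days 4, 6, 8 and 10 by -0.74, -0.88, -0.71 and -0.51, each without overlap (q = 0.0256 by exact permutation test). The day 1 ratio also holds the fall of PSME1 that day (-0.32). The day 10 ratio was no longer past the threshold without Day 0 replicate 4 (-0.49).

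PSME4 (PA200) had the largest fold change of the 8, on day 1. It read 109.7, 136.5, 118.9, 88.0 and 108.8 CPM on day 0 and 355.2, 271.3, 329.0, 292.4 and 321.7 CPM on day 1. The lowest day 1 library was above the highest of day 0, and the log2 fold change was 1.48 ± 0.11 (adjusted p = 5.73e-15), or 2.79-fold, with a range of 1.39 to 1.59 over the alternatives. By day 2 the libraries read 155.3, 153.6, 123.3, 136.0 and 151.0 CPM and overlapped day 0. The remaining difference of 0.35 ± 0.11 (adjusted p = 0.00864) was lost without Day 0 replicate 4, the lowest of its group (0.26, adjusted p = 0.0607). The day 6 value of 0.29 ± 0.11 (adjusted p = 0.0467) was lost under RLE factors (0.27, 0.0567), DESeq2 (0.27, 0.0519) and without any of Day 0 replicates 1, 4 and 5 or Day 6 replicates 1, 4 and 5 (0.21 to 0.29). Days 4 and 8 did not pass (both 0.24), but did without Day 0 replicate 2 (0.34 on each). Day 4 also passed with library size without factors (0.35) and in the fit of the 2 days alone (0.25), and day 8 without Day 8 replicate 5 (0.36). On day 10 it read 108.3, 116.2, 102.9, 105.1 and 123.8 CPM (log2 fold change -0.02, adjusted p = 0.986). Relative to PSME1 it was higher on day 1 by 1.81 on the log2 scale, or 3.5 times (q = 0.0256, exact permutation test), and on no later day. That day 1 ratio also holds the fall of PSME1 (-0.32).

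The division of PSME4 counts between transcript biotypes varied strongly between libraries. The protein-coding share ran from 52% to 86.1% on day 0, 70.3% to 92.2% on day 1 and 56.4% to 66.8% on day 10, and the rest was in entries annotated as nonsense-mediated decay, retained intron or processed transcript. With all biotypes summed, PSME4 was higher than day 0 on day 4 (0.33, adjusted p = 1.49e-05), day 8 (0.26, 0.000851) and day 10 (0.23, 0.00515), the last with the sign turned from the protein-coding entry. On day 1 the sum gave the same call as the protein-coding entry.

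PSMF1 (PI31) rose on day 1. It read 70.0, 80.6, 65.1, 84.4 and 64.5 CPM on day 0 and 91.9, 100.1, 102.6, 106.9 and 86.6 CPM on day 1, without overlap (log2 fold change 0.42 ± 0.08, adjusted p = 2.09e-05). On day 2 the libraries lay between 75.9 and 79.9 CPM, within the day 0 range (0.09 ± 0.08, adjusted p = 0.355). On day 6 they read 61.8, 61.5, 59.3, 61.8 and 66.9 CPM, with 4 of the 5 below the lowest day 0 library. This difference of -0.23 ± 0.08 (adjusted p = 0.0289) was lost with library size without factors (-0.17, adjusted p = 0.078), with all biotypes summed (-0.15, 0.155) and in 5 of 10 fits without a library. Those fits left out Day 0 replicate 2 or 4, or Day 6 replicate 1, 2 or 3. Day 4 (-0.13) passed without Day 4 replicate 1 (-0.21, adjusted p = 0.0391), and day 10 overlapped day 0 (-0.12, adjusted p = 0.279).

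Between successive time points the members moved mainly until day 6. From day 1 to day 2, 7 of 8 passed (39.6% of all entries did in either direction): PSMB8, PSMB9, PSME1 and PSME2 rose, and PSME3, PSME4 and PSMF1 fell, PSME4 by 1.13 on the log2 scale. From day 2 to day 4, 4 fell (background 30.6%), with PSME3 at -0.73 and PSME2 at -0.65. The falls of PSMB8 (-0.20, adjusted p = 0.00878) and PSMF1 (-0.22, adjusted p = 0.0303) in that step were lost without Day 2 replicate 2, Day 4 replicate 2 or Day 4 replicate 5. That of PSMF1 was also lost under filterByExpr (-0.18), RLE factors (-0.20) and without Day 2 replicates 1 or 3 or Day 4 replicate 3. From day 4 to day 6, 4 fell (12.1%): PSME2 (-0.42), PSMB9 (-0.36), PSMB8 (-0.26) and PSME3 (-0.24). From day 6 to day 8 PSME3 rose by 0.22 (adjusted p = 0.0131; 2.56% of entries), a call lost without Day 6 replicate 3 (adjusted p = 0.0537). From day 8 to day 10, 0 of 8 passed in edgeR or DESeq2 (10.1% of entries did in edgeR), with 4 at an unadjusted p under 0.05. Without Day 8 replicate 5, PSME4 passed in that step (-0.37, adjusted p = 0.0186).

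Other transcript biotypes listed under the same symbols, 16 entries in all, were tested among all 65717 entries with counts. On day 1, 1 was higher and 4 were lower, when 10.6% and 11.3% of all entries were. The retained-intron entry of PSMB8 was lower (-1.26 ± 0.28, adjusted p = 0.000548), at a mean of 2.25 CPM against 5.49 CPM. That of PSME2 was lower too (-0.84 ± 0.16, adjusted p = 5.53e-05), at 12.6 against 22.6 CPM, while its protein-coding entry rose, so that the protein-coding share of PSME2 went from a median of 58.5% on day 0 to 79.9% on day 1, without overlap, and 62.7% on day 10. The retained-intron entry of PSME4 was lower as well (-0.99, adjusted p = 0.00111). The decay-annotated entry of PSME3 had at most 7 counts in a day 0 library and 0 in all day 1 libraries. The processed transcript of PSMF1 was higher (0.74, adjusted p = 0.000379). On day 10, 1 was higher and 1 lower (5.89% and 4.41%), the retained-intron entries of PSMB9 (adjusted p = 0.0463, at most 21 counts in a library) and PSME4 (-0.84, adjusted p = 0.0118).

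Per kilobase of the main transcript, the order of levels on day 0 was PSME1 (132.6 ± 7.45 CPM per kb, SD, n = 5), PSME3 (75.3 ± 5.42), PSME2 (56.9 ± 5.56), PSMB8 (55.1 ± 4.26), PSMB10 (39.0 ± 4.70), PSMB9 (21.0 ± 2.30), PSME4 (15.5 ± 2.43) and PSMF1 (8.94 ± 1.12). Of neighbours in this order, PSME2 and PSMB8 overlapped, as did PSMB9 and PSME4, and the others did not. On the same scale the constitutive subunits stood at 51.2 ± 4.86 (PSMB5), 58.6 ± 5.59 (PSMB6) and 146.6 ± 8.06 (PSMB7). PSMB8 and PSMB5 overlapped on day 0, whereas PSMB9 and PSMB10 were below PSMB6 and PSMB7 in all libraries. By day 2, PSME2 (106.5 ± 4.37) and PSMB8 (90.3 ± 5.86) had higher means than PSME3 (79.9 ± 1.98), and on day 6 PSME3 was at 40.8 ± 1.92. Levels of genes with transcripts of unequal length depend on the length used. With the mean length of protein-coding transcripts, which was tried after the data had been seen, PSME3 stood at 118.4, PSME2 at 72.4 and PSMF1 at 28.1 CPM per kb on day 0. On day 2 that length put PSME3 (125.5) above PSMB8 (87.6), the reverse of the order given above, and below PSME2 (135.3).

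Genes of the surrounding pathways and of the marker lists are given by counts at Q ≤ 0.05. Of all entries tested, 25.4% were higher and 27.3% lower on day 1. The shares were 23.2% and 24.4% on day 2, and 16.1% and 15.8% on day 10. Among entries kept by filterByExpr the day 1 shares were larger, 36.1% and 34.8%, and such shares were not computed for the other days. These shares go with every list count below, and a count near them is no result about its list. Among 17 assembly factors and proteasome-bound proteins, 12 rose and 2 fell on day 1 (median log2 fold change 0.45), and day 10 had 5 above and 3 below day 0. The extremes were POMP, the chaperone of 20S assembly (2.14, from 43.8 to 192 CPM), and PSMG3, an assembly chaperone (-0.58), on day 1, and PSMG1 (0.38) and PSMD9 (-0.59) on day 10. UBE3C, a proteasome-bound ubiquitin ligase, was higher on day 1 (0.53), day 2 (0.61) and day 10 (0.16) and lower on day 6 (-0.15). ECPAS, a proteasome scaffold protein, was higher on day 1 (0.86) and day 10 (0.14), and FBXO7, a partner of PI31, was higher from day 1 (0.82) to day 8 (0.39). PSMB11, the thymus-restricted catalytic subunit, was at 0 in all day 0 and day 1 libraries.

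All 3 constitutive catalytic subunits, all 11 structural 20S subunits and all 19 subunits of the 19S particle were higher on day 1, with medians of 1.92, 1.80 and 1.92. Their extremes that day were PSMB5 (1.26) and PSMB6 (2.38), PSMA1 (1.18) and PSMB3 (2.42), and PSMD7 (0.58) and PSMC4 (3.47). On day 10, 0 of 3, 1 of 11 (PSMB3, 0.25) and 6 of 19 were higher (PSMD14 at 0.15 to PSMD1 at 0.55). PSMB5 to PSMB7 had 2 of 3 higher that day under filterByExpr, DESeq2 or library size without factors. Of 8 genes of NRF1 and its activation, 3 rose and 4 fell on day 1, from SEL1L, part of the ER degradation complex (-1.82), to VCP, the p97 segregase (1.77). Day 10 had 2 above and 4 below day 0, from SEL1L (-1.03) to NGLY1 (0.31).

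On the interferon side most called genes were lower. Of 20 genes of interferon-γ signalling and immunoproteasome gene control, 3 rose and 13 fell on day 1, 2 and 13 did so by day 2, and 1 and 9 by day 10, with medians of -0.54, -0.58 and -0.22. The list holds activators and inhibitors of the pathway, SOCS1 and SOCS3 among the latter, so these counts do not measure signalling. IRF1, an ISRE-binding activator of PSMB9 and TAP1, fell from a mean of 86.4 CPM before the pulse to 53.8 CPM after 1 day and 44.1 CPM after 2 (log2 fold changes -0.68 and -0.96, adjusted p = 7.21e-12 and 3.39e-16). It was lower on all 6 days. NLRC5, an activator of MHC class I genes, was lower on days 1, 4 and 6 (-0.48, -0.59 and -0.48) and stood at -0.01 on day 2 (adjusted p = 0.987). The extremes on day 1 were SOCS3 (-1.39), an inhibitor of cytokine signalling, and IRF2 (0.43), and on day 10 SOCS1 (-2.09) and IRF2 (0.29). SOCS1 had a low level, with a mean of 2.38 CPM on day 0, so its fold change rests on few counts. On day 2, when PSMB8, PSMB9 and PSME2 were at their highest means, IRF1 was at its lowest. IRF2, in contrast, was higher on all 6 days, at 0.56 on day 2 (adjusted p = 2.1e-10, edgeR). Whether either regulator is linked to the members in these cells was not tested.

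Interferon-stimulated genes showed a like split. Of 20, 4 rose and 10 fell on day 1, and day 10 had 2 above and 13 below day 0, with medians of -0.54 and -1.17. Their extremes were XAF1 (-4.25) and IFI44 (2.02) on day 1 and IFI44 (-2.86) and BST2 (0.53) on day 10. Of 15 genes of MHC class I antigen processing, 2 rose and 10 fell on day 1, and day 10 had 9 below and 0 above day 0, with medians of -0.57 and -0.33. HLA-E had the lowest value on day 1 (-1.86, from 829 to 228 CPM) and ERAP2, a peptide-trimming enzyme, the highest (1.09). On day 10 the called genes ran from HLA-F (-0.74) to TAP2 (-0.19). TAP1, the divergent neighbour of PSMB9, was lower on day 2 (-0.55 ± 0.08, adjusted p = 1.73e-07), from 59.1 to 40.3 CPM, on the day when PSMB9 was higher (0.46). On day 1 TAP1 stood at 0.02 (adjusted p = 0.889). Of the marker lists, 1 of 10 plasma cell markers rose (POU2AF1, 0.37) and 6 fell on day 1 (down to TNFRSF17, -1.93), with 5 above and 2 below on day 10 (SLAMF7, -0.83, to MZB1, 0.52). Of 11 markers of other cell types with counts, 2 rose and 4 fell on day 1 (NCAM1, 1.30, to COL1A1, -2.58), and EPCAM (0.59) was above day 0 on day 10. COL1A1 was near the floor, at 0 to 1.43 CPM over all libraries.

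The entries whose log2 CPM followed each gene most closely over the 35 libraries, of 12301 compared by Pearson's r, are a description, since all points share their libraries and days. PSME3 was followed most closely, by ARHGDIA (r = 0.973), TOMM40 (0.963) and DYNLL1 (0.963). PSMB8 had CLSTN1 (0.93), ZDHHC12 (0.929) and COX8A (0.925), and PSMB9 had COX8A (0.818), CD320 (0.817) and PSMB8 itself (0.814), the one pair within the 8. PSME2 was followed by HN1 (0.926), UBAC1 (0.919) and FEN1 (0.912), and PSME4 by ITGAV (0.918), SPTAN1 (0.913) and ATP6V1A (0.912). The nearest entries of PSME1 were ATP5D (0.896), CD68 (0.853) and NSMCE1 (0.851), and those of PSMF1 were MFSD5 (0.891), SF3B4 (0.885) and MRPL4 (0.88). PSMB10 had no entry above 0.671 (PDCD6, then HDAC3 at 0.654 and DNAJC30 at 0.653).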

How the data were processed

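The authors pseudoaligned paired-end reads of directional libraries to the GENCODE transcriptome (GRCh38.p12) with Kallisto 0.44.0, with a GC correction, and used tximport to sum the estimates with a correction for transcript length. The deposited values are estimated counts, given as whole numbers per gene symbol and biotype, without normalization for library size. Whether strand was used in the estimates is not given in the sources used here.

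The 17999 protein-coding entries with a count were fitted in edgeR 4.0.16 (glmQLFit, glmQLFTest) in R 4.3.3, with TMM factors, day as a factor over 35 libraries and Benjamini-Hochberg adjustment at Q ≤ 0.05. SE is the log2 fold change divided by the root of the F statistic. Count ratios within libraries were compared by exact permutation tests. Lists were described by counts and medians. The code was tested on simulated data.

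The members, lists, motifs and alternatives were chosen with earlier results of these data known. Named genes were the 8 members, PSMB5 to PSMB7, IRF1, NLRC5, POMP, UBE3C, ECPAS, FBXO7, TAP1 and PSMB11, the highest and lowest called gene of each list on days 1 and 10, and the 3 entries most correlated with each member. Some genes that the rule covers are not reported here. Alternatives were filterByExpr, RLE factors, no factors, a replicate block, DESeq2 1.42.0, a fit of the 2 days compared, medians, and leaving out each library. Sums over biotypes and mean transcript lengths were added after seeing the data. Positions and lengths came from GENCODE release 44. Sequencing batches are not given, and none was tested. Proteins and metabolites were not analysed here.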

Additional observations from a re-analysis of the deposited data

Results flagged for a closer look

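PSME1 in Day 1 replicate 1 stood apart from its group: this library read 85.26 CPM, while the other 4 of day 1 read between 103.4 and 110.7 CPM, a gap of 0.713 of the whole range. It was the 1 group so marked of 56 groups of 5 libraries examined (8 genes on 7 days), and chance marks about 1 in 20 such groups. Without this library PSME1 was still lower on day 1 than on day 0 at the threshold.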

How the results depend on the processing

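The largest changes kept their direction and side of the threshold under all alternatives run: PSME4 on day 1, PSMB8 and PSME2 on day 2, and PSME3 on days 1, 4, 6, 8 and 10. Same-numbered libraries did not deviate together (mean r 0.00489 over 105 pairs), and with the replicate block 88 of 88 member values kept their calls, for example 1.48 for PSME4 on day 1. Library size without factors put the median log2 fold change of expressed entries at 0.12, 0.13 and 0.11 on days 1, 2 and 4 (with factors 0.01, 0.00 and -0.01), and the counts of higher members rose with it, from 4 to 8 on day 2 and from 3 to 6 on day 4 (with 1 lower there in both), while those lower on day 6 went from 2 to 1 and those called from day 8 to 10 from 0 to 1. RLE factors and DESeq2 each left 1 of 2 higher on day 6. With all biotypes summed, which put that median at 0.11 on day 1 and 0.07 on day 2, 8 were higher on day 2, 3 on day 8 and 2 on day 10. That sum turned PSME4 on day 10 to 0.23 and PSMB10 from day 2 to day 4 to -0.26, took the PSMB8 to PSMB9 ratio on day 2 below the threshold (0.17) and brought the PSME1 to PSME2 ratio past it on day 6 (0.24) and day 8 (0.22). Among other biotypes, filterByExpr gave 2 higher on day 1 and library size without factors 0 on day 10. With medians in place of means no ratio passed (lowest q 0.105, exact permutation test), since medians of 5 reach fewer distinct values. The differences were -1.07, 0.55 and 0.29 for PSMB8 to PSMB5 on days 1, 2 and 4, -2.31 for PSMB9 to PSMB6, -1.72 for PSMB10 to PSMB7, 0.22 for PSMB8 to PSMB9 on day 2, -0.81 and -0.75 for PSME1 to PSME2 on days 1 and 2, 0.79, -0.73, -0.90, -0.65 and -0.49 for PSME3 to PSME1 on days 1, 4, 6, 8 and 10, and 1.80 for PSME4 to PSME1. Leaving out 1 library gave 2 to 5 members higher and 1 to 2 lower on day 4 (5 without Day 4 replicate 5, 2 lower without Day 4 replicate 1), 1 to 2 higher and 1 to 2 lower on day 6, 1 to 2 higher on day 8 (2 without Day 0 replicate 2 or Day 8 replicate 5) and 0 to 1 on day 10, with 2 to 4 called from day 2 to 4, 0 to 1 from day 6 to 8 and 0 to 1 from day 8 to 10. Ratios so refitted ranged from 0.21 to 0.29 (PSMB8 to PSMB9, day 2), 0.22 to 0.30 (the same, day 10, past the threshold without Day 10 replicate 3), -0.31 to -0.21 (PSMB9 to PSMB6, day 2), -0.29 to -0.20 (the same, day 10, past it without Day 10 replicate 1) and -0.57 to -0.47 (PSME3 to PSME1, day 10). Except where stated, the cause was not tested. Among the 8 genes, PSMB9, with 98 to 261 counts per library, had the least depth. The low entries of other biotypes and low list genes such as SOCS1 and COL1A1 had less.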
